A study of Homo sapiens with 6 samples.

Results

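Of 14884 genes measured by name, 226 were ZNF zinc finger genes of chromosome 19, and their transcripts were compared between NR1D1 knockout and control MDA-MB-231 cells. They were chosen as genes whose symbol in the platform annotation is ZNF followed by a digit and which lie on chromosome 19. Pseudogenes and antisense or divergent transcripts (5 measured genes) were left out, and a gene with several probe sets was read at the brightest. The RefSeq gene table lists 253 such genes on this chromosome, so the rest were not analysed here. Of the 226, 75 lie on the short arm and 151 on the long arm. One of them, ZNF625-ZNF20, is a readthrough transcript of neighbouring genes, and the other 225 are protein-coding.

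MDA-MB-231 is a long-established human breast cancer cell line of the triple-negative, mesenchymal type. Control cells and NR1D1 KO cells gave 3 arrays each, and all 6 were exposed to 200 µM H2O2 for 72 h, so no array shows either genotype without peroxide. NR1D1 encodes REV-ERBα, a heme-binding nuclear receptor that represses transcription within the circadian clock. Each array is labelled as a biological replicate, but the labels do not say whether replicates came from separate cultures or clones or how the knockout was made. The p-values here reflect how far these 6 arrays scatter. No probe set was annotated to NR1D1, and the knockout was not checked from its transcript here.

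The deposited values are normalized log2 summaries of GeneChip whole-transcript arrays, with array medians between 5.18 and 5.22, and precision is limited by the number of arrays. Of the markers of mesenchymal carcinoma cells, VIM, CD44, AXL, MSN and ANXA1 read between 9.01 and 12.03 in group means. The luminal and hormone receptor genes ESR1, PGR and GRHL2 read between 3.99 and 5.19. EPCAM (7.22 in control and 7.62 in knockout), KRT8 (6.59 and 6.88) and GATA3 (7.48 and 6.75) lay between these. The fibroblast and endothelial markers DCN, LUM, PECAM1 and VWF and the monocyte marker CD14 read between 2.57 and 5.39. GATA3 and CD44 fell in the knockout (limma adjusted p = 0.00166 and 0.0324), and EPCAM and VIM rose (0.0286 and 0.0337). The part of these marker changes in the results below was not tested. In bulk RNA, fewer cells of a kind and less transcript per cell cannot be told apart.

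C2H2 zinc finger proteins bind DNA through repeated finger modules, each held together by a zinc ion. Many of those encoded on chromosome 19 carry a KRAB domain, which recruits the corepressor TRIM28 (KAP1) and through it histone methylation and heterochromatin proteins. Their best known targets are retrotransposons. The genes arose by repeated tandem duplication and lie in dense runs on both arms, so that neighbours are often close paralogs. Probes of a paralog may therefore read several members. Probe sequences were not at hand, and the value of a single member is uncertain to that extent.

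The 226 genes shifted slightly upward as a body, while few passed the test as single genes. At a limma adjusted p under 0.05, 10 rose and 2 fell, or 5.31% of the 226, against 9.49% of all genes tested. By direction, 4.42% rose and 0.885% fell, where 4.74% of all genes tested rose and 4.74% fell. Without knockout replicate 3 the order of these shares turned, with 7.08% of the members called against 6.68% of all genes. The median log2 change was 0.10, against 0.0039 over all genes tested. A change above 0 was measured for 161 of the 226 (71.2%), against 51% of all genes. The 3 knockout values all lay above the 3 control values for 53 genes (23.5%, against 15.1% of all genes) and all below for 9 (3.98%, against 13.6%). These shares describe the list, which was not tested as a set.

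The shift was small beside the precision of a single gene. Among the 226 the typical standard error (median) was 0.108 on the log2 scale, and for 179 of them the 95% interval lay within 1.5-fold in both directions. A larger change is therefore not covered by the interval of most members, whereas changes near the median could not be resolved gene by gene. ZNF675 alone exceeded 2-fold. The count of called members was 7 without knockout replicate 2 (6 rose and 1 fell), or 3.1% against 5.46% of all genes in that fit. Leaving out the dimmest 25% of genes gave 21 of 202 (10.4%), where 15.9% of all genes were called, and leaving out the dimmest 50% gave 21 of 136 (15.4% against 25.4%). A trend and robust prior gave 19 (8.41% against 13.1%).

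**Figure D1:**
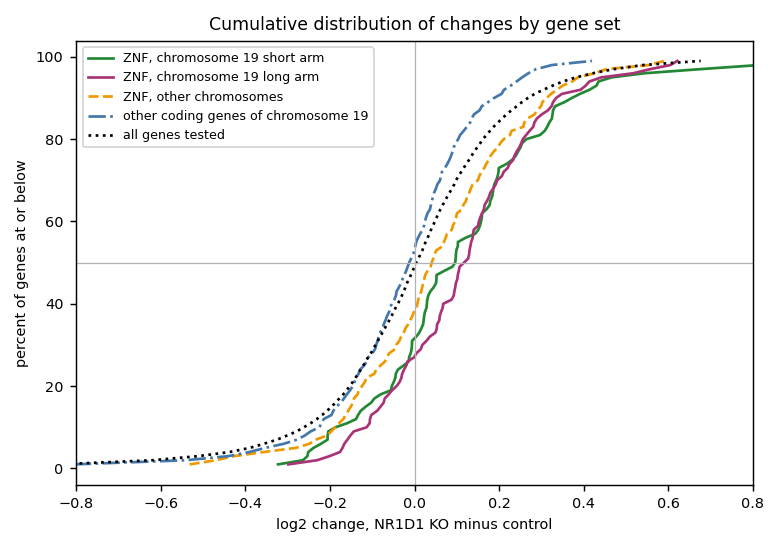
Cumulative distributions of the log2 change (NR1D1 KO minus control, x axis) in percent of genes (y axis), for ZNF genes of the short and long arm of chromosome 19, ZNF genes of other chromosomes, other coding genes of chromosome 19 and all genes tested. Both curves of chromosome 19 ZNF genes cross 50% to the right of 0, at 0.096 and 0.12, and the curve of their non-ZNF neighbours crosses at -0.013.

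Other genes of the same chromosome had medians nearer 0 or below it. Among 709 other coding genes of chromosome 19 the median log2 change was -0.013, with 331 above 0, and 10 rose and 30 fell. Of the 709, 5.64% were called (1.41% rose and 4.23% fell), against 9.49% of all genes tested. That share was close to the 5.31% of the 226 ZNF genes. The medians of the 709 genes were -0.041 on the short arm (316 genes) and 0.0036 on the long arm (393 genes). ZNF genes on other chromosomes lay between. Of 242 of them 148 had a change above 0 (61.2%), the median was 0.040, and 14 rose and 8 fell (9.09% called).

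Array by array, the mean over the 226 genes was 6.19, 6.22 and 6.24 in the control replicates 1, 2 and 3 and 6.36, 6.35 and 6.28 in the knockout replicates (log2). All 3 knockout arrays lay above all 3 controls, and knockout replicate 3 was the nearest to them. Over all genes tested the same means lay between 6.21 and 6.23 on every array. Without the 12 called genes, the mean of the other 214 was 6.17 ± 0.022 in control and 6.27 ± 0.040 in knockout arrays (SD, n = 3 each). Leaving out knockout 3 put the median change of the 226 at 0.13, and leaving out knockout 1 put it at 0.080.

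On both arms the median change was above 0. The median log2 change was 0.096 for the 75 short-arm genes and 0.12 for the 151 long-arm genes, with 51 and 110 above 0. Leaving out knockout 1 put these medians at 0.060 and 0.097, and leaving out the dimmest 50% of genes put them at 0.15 and 0.13, in the opposite order. On the short arm 4 rose and none fell (5.33% called), and on the long arm 6 rose and 2 fell (5.3% called). At an unadjusted p under 0.05 there were 15 short-arm genes (20%) and 35 long-arm genes (23.2%), in either direction, near the 22.8% of all genes tested. Short-arm array means were 6.01, 6.05 and 6.05 in control and 6.19, 6.20 and 6.06 in knockout arrays. There the lowest knockout array stood just above the highest control. Long-arm means were 6.28, 6.30 and 6.33 in control and 6.44, 6.43 and 6.39 in knockout arrays, with a clear gap. The difference between the arms was not tested. All arrays gave 8 long-arm calls (5.3%). Leaving out control 3 or knockout 1 gave 5 (3.31%), and leaving out knockout 2 gave 4 (2.65%). Over all genes the share called was 9.49% with all arrays. It was 4.86% without control 3, 7.05% without knockout 1 and 5.46% without knockout 2.

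**Figure D2:**
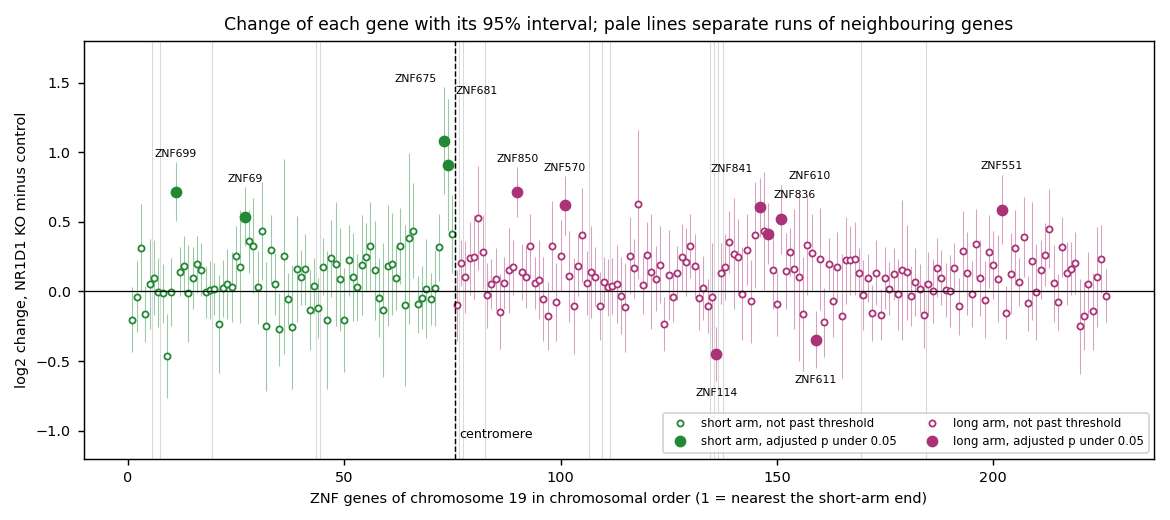
Log2 change (NR1D1 KO minus control, y axis) of the 226 ZNF genes in their order along chromosome 19 (x axis), with 95% intervals as vertical lines and the centromere dashed. Filled points are the 12 genes past an adjusted p of 0.05, which lie on both arms, with ZNF675 and ZNF681 next to each other at the centromere end of the short arm.

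The sequences before the start sites of the genes show how closely many of them are related. RefSeq windows (GRCh38.p14) were at hand for 199 of the 226, among them 10 of the 12 called, and the 250 bases before the annotated start were read. The following windows are shown because ZNF675 and ZNF681 are the called neighbours with the largest rises. That of ZNF431 is added because it shares the most aligned bases with the ZNF681 window. Capitals mark the shared letters CTGTCACTCAG. The windows are chr19:23687213-23687462 (minus strand), chr19:23758892-23759141 (minus strand) and chr19:21141790-21142039 (plus strand), in that order.
ZNF675: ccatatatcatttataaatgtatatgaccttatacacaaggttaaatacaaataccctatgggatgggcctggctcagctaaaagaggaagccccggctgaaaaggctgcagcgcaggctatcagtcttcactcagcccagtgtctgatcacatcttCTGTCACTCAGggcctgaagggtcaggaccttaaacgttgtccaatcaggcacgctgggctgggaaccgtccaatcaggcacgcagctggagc
ZNF681: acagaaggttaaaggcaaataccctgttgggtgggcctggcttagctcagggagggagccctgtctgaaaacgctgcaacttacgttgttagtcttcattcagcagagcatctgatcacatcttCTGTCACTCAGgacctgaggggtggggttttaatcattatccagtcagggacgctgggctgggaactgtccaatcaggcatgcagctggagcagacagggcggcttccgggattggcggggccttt
ZNF431: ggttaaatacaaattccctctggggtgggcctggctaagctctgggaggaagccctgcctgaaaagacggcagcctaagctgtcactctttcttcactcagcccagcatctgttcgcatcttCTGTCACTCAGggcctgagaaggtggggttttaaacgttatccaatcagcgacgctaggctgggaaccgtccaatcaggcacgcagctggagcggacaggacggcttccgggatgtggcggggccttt

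The windows of ZNF675 and ZNF681 shared 177 of 250 bases in a global alignment (70.8%). The ZNF675 window ends with letters that the ZNF681 window holds before its own end, so the annotated starts are offset. Shares are taken over all 250 bases, and such an offset lowers them. Those of ZNF681 and ZNF431 shared 210 (84.0%). The log2 change was 0.91 for ZNF681 and -0.044 for ZNF431. Altogether 12 members had a window at least 80% identical to that of ZNF681 by this measure. Their changes ran from -0.10 to 0.38, with none called. The called gene ZNF675 is not among them, and the offset of its start lowers its share.

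A further pair of short-arm windows is given because ZNF69 rose and its neighbour ZNF439 carries the most similar window (219 of 250 bases, 87.6%). ZNF69 has the same CTGTCACTCAG in capitals, and ZNF439 differs from it inside that stretch. They lie at chr19:11887532-11887781 and chr19:11848476-11848725, both on the plus strand.
ZNF69: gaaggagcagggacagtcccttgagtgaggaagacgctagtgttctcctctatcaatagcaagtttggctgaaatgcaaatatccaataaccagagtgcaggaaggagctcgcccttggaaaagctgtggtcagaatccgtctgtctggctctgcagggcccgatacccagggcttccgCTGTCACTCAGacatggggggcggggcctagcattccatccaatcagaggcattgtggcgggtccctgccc
ZNF439: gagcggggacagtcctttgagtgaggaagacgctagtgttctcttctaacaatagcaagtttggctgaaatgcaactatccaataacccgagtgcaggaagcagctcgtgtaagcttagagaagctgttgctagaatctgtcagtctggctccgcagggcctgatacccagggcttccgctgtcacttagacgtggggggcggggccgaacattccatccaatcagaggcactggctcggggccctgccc

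CTGTCACTCAG is the longest stretch shared by the windows of ZNF675, ZNF681 and ZNF69. It was chosen from called genes and then counted on both strands, so its counts are a description. It was present in 28 of the 66 short-arm genes with a window (42.4%) and in 0 of 133 long-arm genes, against 0.227% of 27305 genes counted in the same way, over all their listed starts (0.177% of 35116 single windows). Of the 28 carriers, 17 lie in the run from ZNF101 to ZNF254 and 11 in the run from ZNF653 to ZNF791. The 28 carriers had a median log2 change of 0.19, with 23 above 0 and 3 rises (ZNF675, ZNF681 and ZNF69). These 3 rises among the carriers are fixed by the choice of the stretch, and the same 3 genes enter the carriers' median. The other 38 short-arm genes had a median of 0.026, with 22 above 0 and 1 rise (ZNF699). Changes among carriers ranged from -0.27 to 1.08. The 17 carriers in the run from ZNF101 to ZNF254 had a median of 0.18, and so had that whole run. The 11 in the run from ZNF653 to ZNF791 had a median of 0.25, against 0.051 for that whole run. Carriers were not tested against other genes.

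ACTACATTTCCCAG was chosen as the most frequent stretch of 14 bases among long-arm genes that no short-arm gene holds. Its absence from the short arm is by construction, and its share on the long arm is raised by the same choice. It was present in 15 of 133 long-arm genes (11.3%), against 0.256% of all genes (0.205% of all windows). Carriers had a median change of 0.14 and the other 118 long-arm genes 0.10. The window of ZNF850, the member with the smallest p, is shown because it holds this stretch, in capitals (chr19:36772808-36773057, minus strand).
ZNF850: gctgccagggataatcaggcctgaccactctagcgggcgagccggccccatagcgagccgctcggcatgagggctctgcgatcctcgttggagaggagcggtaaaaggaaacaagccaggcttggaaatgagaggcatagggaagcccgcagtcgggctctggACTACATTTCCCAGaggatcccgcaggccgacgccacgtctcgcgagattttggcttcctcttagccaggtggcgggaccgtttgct

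ZNF850 was the only called gene among those carriers. The receptor half-site AGGTCA, to which REV-ERBα and other nuclear receptors bind, was found for 24 of the 199 members (12.1%) and for 14.6% of all genes (12.1% of all windows). Its longer form TAGGTCA, which contains the half-site, was found for 0 of the 199 members and 2.01% of all genes (1.61% of all windows). The GC box GGGCGG was found for 134 of the 199 (67.3%) and 46.2% of all genes (42.6% of all windows). All motifs were counted on both strands. A match is no evidence of binding, and a missing match says only that the letters are not in that window.

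The last pair is shown because ZNF611 fell and ZNF808 carries the window most like its own. Capitals mark the bases in which ZNF611 and ZNF808 differ in the alignment (216 of 250 bases identical, 86.4%). The windows are chr19:52735045-52735294 (minus strand) and chr19:52527418-52527667 (plus strand).
ZNF611: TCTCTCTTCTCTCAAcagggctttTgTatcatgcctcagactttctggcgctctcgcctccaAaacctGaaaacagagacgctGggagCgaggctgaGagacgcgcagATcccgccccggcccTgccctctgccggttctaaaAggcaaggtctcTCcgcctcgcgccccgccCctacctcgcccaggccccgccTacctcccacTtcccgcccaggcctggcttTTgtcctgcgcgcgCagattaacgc
ZNF808: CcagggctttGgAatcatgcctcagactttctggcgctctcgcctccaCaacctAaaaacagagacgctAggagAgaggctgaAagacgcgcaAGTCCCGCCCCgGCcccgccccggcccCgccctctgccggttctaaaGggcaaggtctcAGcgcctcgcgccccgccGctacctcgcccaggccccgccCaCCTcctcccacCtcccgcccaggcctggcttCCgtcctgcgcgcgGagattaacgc

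The members with a window at least 80% identical to that of ZNF611 were ZNF808, ZNF845, ZNF765, ZNF701 and ZNF83. Their log2 changes were -0.16, 0.22, 0.24, 0.33 and 0.28, and none passed the test. ZNF611 itself changed by -0.35, a value inside the 95% interval of ZNF808 (-0.57 to 0.25). The same value lies outside the intervals of ZNF845 (-0.022 to 0.47), ZNF765 (-0.026 to 0.50), ZNF701 (-0.026 to 0.70) and ZNF83 (0.0029 to 0.55). The error of ZNF611 itself does not enter this comparison.

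On the short arm, ZNF675 and ZNF681 had the largest rises of the 226 genes. ZNF675, also known as TIZ, encodes a zinc finger protein that binds and inhibits the signalling adaptor TRAF6. It measured 4.83, 5.22 and 5.15 in the control and 6.25, 6.40 and 5.79 in the knockout replicates (log2). The groups did not overlap, and knockout replicate 3 was the lowest of its group. The fold change was 2.12 (log2 change 1.08 with a standard error of 0.168, limma adjusted p = 0.00594). Its signal lay below the median of all genes, and it was not tested when the dimmest 50% of genes were left out.

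ZNF681, the next measured ZNF gene toward the centromere, read 5.56, 6.11 and 5.63 in control and 6.68, 7.05 and 6.29 in knockout arrays. The groups did not overlap, but knockout replicate 3 lay close to control replicate 2. The rise was 1.88-fold (log2 change 0.91, SE 0.206, limma adjusted p = 0.0302). The call was lost on leaving out control 1, control 3, knockout 1 or knockout 2 (adjusted p between 0.0819 and 0.102).

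The measured ZNF genes on either side of this pair were also higher on all knockout arrays without passing the test. ZNF91, which encodes a repressor of SVA retrotransposons, read 6.31, 6.40 and 6.42 in control and 6.75, 6.83 and 6.49 in knockout arrays (limma adjusted p = 0.106). ZNF254, the measured ZNF gene nearest the centromere, read 7.01, 6.95 and 7.23 against 7.70, 7.40 and 7.33 (limma adjusted p = 0.0760). In both, knockout replicate 3 came closest to the controls. These 2 genes were chosen after their values were seen, for their place beside ZNF675 and ZNF681. The next measured genes outward from ZNF91 did not share the rise. ZNF728, ZNF99, ZNF492, ZNF98 and ZNF729 had log2 changes of 0.024, -0.056, 0.021, -0.046 and -0.092, with overlapping groups.

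ZNF699, further out on the short arm, encodes a KRAB zinc finger protein related to the fly protein hangover. It measured 6.39, 6.30 and 6.46 in control and 7.11, 7.22 and 6.97 in knockout arrays, a clean separation. The rise was 1.64-fold (log2 change 0.72, SE 0.0926, limma adjusted p = 0.00257). ZNF558 lies 2 measured ZNF genes away and had the largest negative change of all 226, -0.46. It read 6.26, 6.73 and 6.49 in control and 5.86, 6.08 and 6.15 in knockout arrays, with an adjusted p of 0.0677 by limma. Both measurements come from 1 run of 12 genes. ZNF69 read 6.11, 6.38 and 6.27 in control and 6.84, 6.75 and 6.79 in knockout arrays. Its rise was 1.45-fold (limma adjusted p = 0.00933).

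On the long arm, ZNF850 and ZNF570 rose within the same run of 24 genes. ZNF850 read 8.22, 8.17 and 8.16 in control and 8.89, 8.82 and 8.97 in knockout arrays. The replicates of each group were tight, and the rise was 1.64-fold (log2 change 0.71, SE 0.0787, limma adjusted p = 0.00122, the smallest of the 226). ZNF570 read 5.81, 6.07 and 5.89 in control and 6.54, 6.60 and 6.49 in knockout arrays, a 1.53-fold rise (limma adjusted p = 0.00472). Neither gene lost its call when any single array was left out.

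ZNF841, ZNF836 and ZNF610 rose within the run from ZNF175 to ZNF331. ZNF841 measured 9.10, 9.21 and 9.15 in control and 9.92, 9.68 and 9.68 in knockout arrays, a 1.52-fold rise (limma adjusted p = 0.00556). Its neighbour ZNF616, whose window shares 181 of 250 bases with that of ZNF841, read 5.40, 5.93 and 5.29 against 5.84, 6.26 and 5.82. The groups of ZNF616 overlapped, and its adjusted p was 0.211 (limma).

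ZNF836, next to ZNF616, read 6.46, 6.62 and 6.40 in control and 6.91, 6.80 and 7.01 in knockout arrays, a 1.33-fold rise (limma adjusted p = 0.0319). ZNF610 read 5.87, 6.23 and 6.20 in control and 6.61, 6.64 and 6.60 in knockout arrays, a 1.43-fold rise (limma adjusted p = 0.0222). Groups did not overlap for either. ZNF836 kept its call only without control replicate 2 among the 6 fits that left out 1 array (adjusted p up to 0.117), and with the replicate number as a block its adjusted p was 0.0796. ZNF610 missed the threshold without any 1 knockout array (adjusted p between 0.0587 and 0.0729).

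ZNF551, in the run from ZNF264 to ZNF446, read 6.16, 6.30 and 5.90 in control and 6.67, 6.73 and 6.73 in knockout arrays. The controls varied more than the knockouts, and the rise was 1.5-fold (log2 change 0.59, limma adjusted p = 0.0131). Without knockout replicate 2 the adjusted p was 0.0506. A dimmer probe set of ZNF551 changed by 0.12 (limma adjusted p = 0.602 over probe sets). The probe sets of this gene therefore disagreed in size.

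The falls were 1.37-fold for ZNF114 and 1.27-fold for ZNF611. ZNF114 read 9.85, 10.04 and 9.91 in control and 9.52, 9.49 and 9.42 in knockout arrays (log2 change -0.45, SE 0.0847, limma adjusted p = 0.0136). It stands alone on the chromosome, with no other ZNF gene within 500 kb. ZNF611 read 8.23, 8.17 and 8.10 in control and 7.79, 7.95 and 7.72 in knockout arrays (limma adjusted p = 0.0488). ZNF114 was no longer called on leaving out control 2 (adjusted p = 0.0512) or control 3 (0.0505). ZNF611 was not called without any 1 of the 6 arrays (0.0504 to 0.154), with array median centring (0.0567), with array weights (0.0616) and with the replicate number as a block (0.0771).

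**Figure D3:**
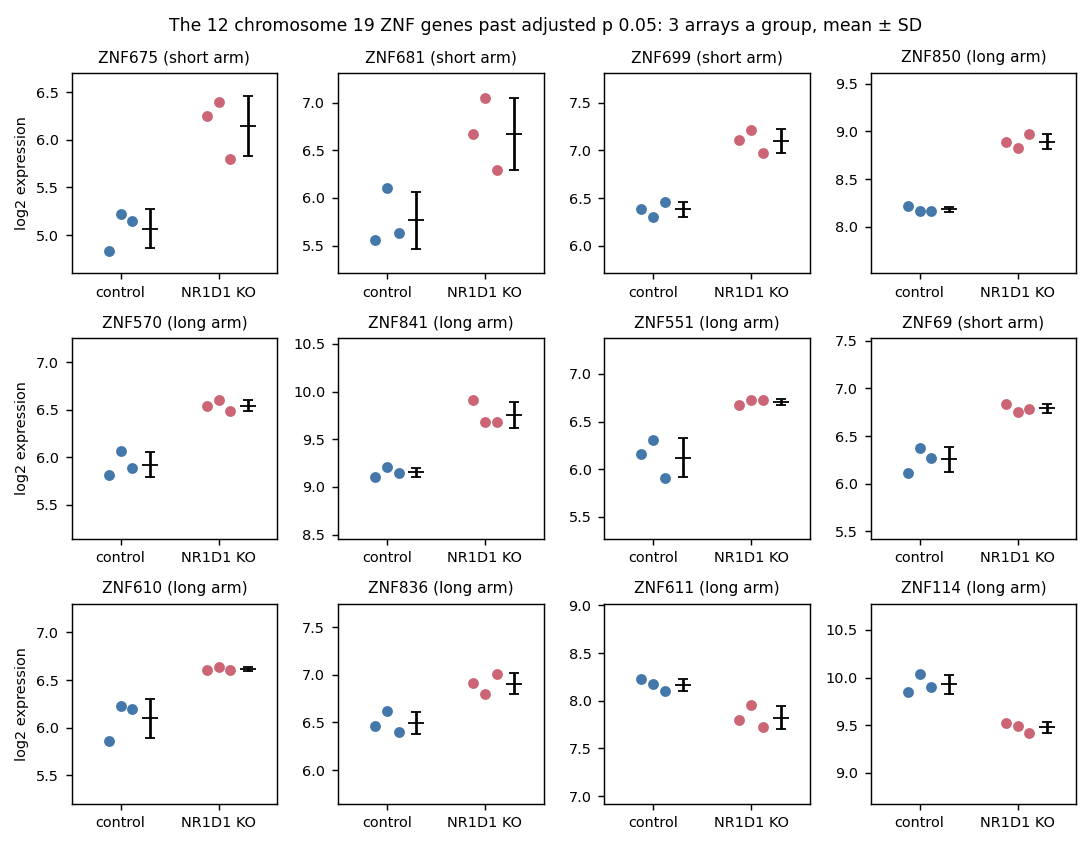
Log2 expression (y axis) of the 12 called genes on the 3 control and 3 NR1D1 KO arrays, 1 panel per gene with a common span, with points for arrays and a bar for the mean ± SD. The groups do not overlap in any panel, and the widest spread among knockout arrays is that of ZNF681.

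Just outside the threshold stood ZNF528 (log2 change 0.28, limma adjusted p = 0.0520), ZNF256 (0.45, 0.0577), ZNF700 (0.36, 0.0578) and ZNF577 (0.36, 0.0601). They were chosen after their values were seen, as the next genes by p. ZNF528 read 7.11, 7.13 and 7.04 in control and 7.39, 7.35 and 7.38 in knockout arrays, and the groups of all 4 did not overlap. ZNF528, ZNF256, ZNF700 and ZNF577, together with ZNF558 and ZNF254, were past the threshold when the dimmest 25% of genes were left out and with the trend and robust prior. At an unadjusted p under 0.05 there were 50 of the 226 genes, or 22.1%.

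The genes fall into runs in which neighbouring ZNF genes start within 500 kb of each other, and 10 runs held at least 5 measured genes. The highest median changes belonged to the run from ZNF302 to ZNF792 (5 genes, 0.25, all 5 above 0), the run from ZNF175 to ZNF331 (32 genes, 0.21, 24 above 0) and the run from ZNF101 to ZNF254 (31 genes, 0.18, 23 above 0). The first of these had no called gene, and its smallest p belonged to ZNF30. That gene read 4.89, 5.39 and 4.92 in control and 5.66, 5.78 and 5.34 in knockout arrays, where the groups overlapped (limma adjusted p = 0.0860). It passed the threshold without control replicate 2 (0.0336), with the replicate number as a block (0.0394) and without the dimmest 25% of genes (0.0485).

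Middle values came from the runs from ZNF575 to ZNF180 (23 genes, median 0.12), from ZNF264 to ZNF446 (42 genes, 0.10) and from ZNF565 to ZNF573 (24 genes, 0.096). Between 73.8% and 75% of the genes in these 3 runs had a change above 0. The run from ZNF575 to ZNF180 had no call. ZNF235 had its smallest p, with 5.33, 5.04 and 5.24 in control and 5.58, 5.58 and 5.42 in knockout arrays (limma adjusted p = 0.0878).

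The lowest medians belonged to the outermost short-arm run, from ZNF554 to ZNF77 (5 genes, -0.038), and to the long-arm run from ZNF628 to ZNF835 (15 genes, 0.018). None of their genes was called. Changes in the latter run stayed between -0.17 and 0.15. By smallest p, ZNF556 of the former run read 4.22, 3.97 and 4.24 in control and 4.24, 4.73 and 4.38 in knockout arrays (limma adjusted p = 0.228). ZNF784 of the latter read 6.54, 6.63 and 6.56 against 6.44, 6.46 and 6.34 (limma adjusted p = 0.259). The 2 remaining short-arm runs, from ZNF414 to ZNF846 (12 genes) and from ZNF653 to ZNF791 (24 genes), had medians of 0.053 and 0.051.

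The knockout arrays did not carry the shift equally in every run. In the run from ZNF101 to ZNF254 the mean level of knockout replicates 1 and 2 lay 0.24 and 0.25 above the control mean, and that of replicate 3 only 0.039, close to the highest control (0.021). In the run from ZNF175 to ZNF331 the same values were 0.16, 0.22 and 0.13, and the controls stayed within 0.011 of their mean. Without knockout replicate 3, the median change of the former run was 0.23.

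**Figure D4:**
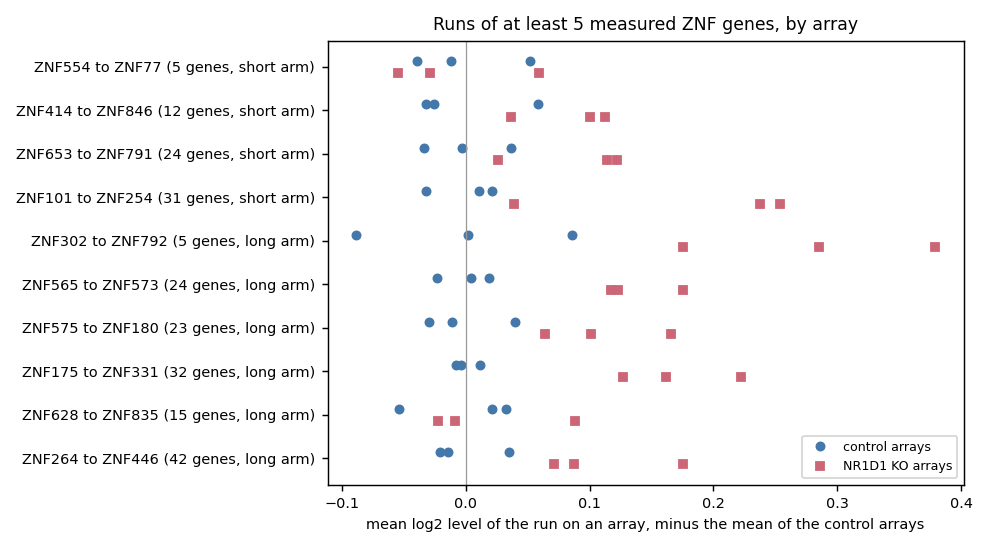
Mean log2 level of each run of at least 5 measured ZNF genes on every array (x axis), minus the mean of the control arrays, with runs in chromosomal order from the short-arm end (y axis). In 6 of the 10 runs all knockout arrays lie to the right of all control arrays, and in the run from ZNF101 to ZNF254 knockout replicate 3 lies at 0.039, beside the highest control.

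Direct neighbours did not track each other closely. Among 207 pairs of neighbouring members of a run, both changes were above 0 in 103, both below 0 in 9 and opposite in 95. The correlation of the changes within pairs was weak (Pearson r = 0.131, Spearman rho = 0.0306, across pairs that share genes and arrays).

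Another 5 members with a described function were not called. These were chosen for their known roles, after their values were seen. ZNF93, a repressor of LINE-1 elements, read 6.91, 7.38 and 7.28 in control and 7.17, 7.57 and 7.09 in knockout arrays (limma adjusted p = 0.812). ZNF274, which brings the methyltransferase SETDB1 to the ends of ZNF genes themselves, read 7.39, 7.50 and 7.45 against 7.76, 7.47 and 7.49 (limma adjusted p = 0.505). ZNF473, which takes part in histone mRNA 3′ end processing, had a log2 change of 0.13 (limma adjusted p = 0.485). ZNF331, an imprinted gene, had the same log2 change of 0.13 with groups that did not overlap (limma adjusted p = 0.377). ZNF224, a KRAB repressor that partners WT1, changed by -0.23 at its brighter probe set and by 0.066 at the dimmer (limma adjusted p = 0.145 at the brighter).

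KRAB zinc finger proteins act through a shared set of partners. A list of 39 genes held such partners, relatives of TRIM28 and more general chromatin factors, and 31 of the 39 were measured. Of these, 5 rose and 1 fell (19.4% called, against 9.49% of all genes tested), with a median log2 change of 0.15 and 24 above 0. Most of the list is bright. Leaving out the dimmest 50% of genes kept 28 of the 31, with 39.3% called against 25.4% of all genes in that fit. TRIM28, the corepressor that binds the KRAB domain, read 9.59, 9.65 and 9.56 in control and 9.64, 9.65 and 9.84 in knockout arrays, where the groups overlapped (log2 change 0.11, limma adjusted p = 0.521). SETDB1 was not measured by name.

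The fall was that of TRIM33, a relative of TRIM28 that acts in TGF-β signalling. It read 10.07, 10.13 and 10.17 in control and 8.98, 9.04 and 8.87 in knockout arrays, 2.24-fold lower (limma adjusted p = 0.000141). UHRF1, which maintains DNA methylation at replication and itself lies on chromosome 19, read 9.18, 9.07 and 9.13 against 9.65, 9.59 and 9.72, a 1.44-fold rise (limma adjusted p = 0.00512). The histone methyltransferase gene EHMT1 rose 1.31-fold (limma adjusted p = 0.0206) and SUV39H1, which trimethylates histone H3 lysine 9, rose 1.28-fold (limma adjusted p = 0.0292). Leaving out any 1 control array, or knockout 2, gave 2 calls in this list, leaving out knockout 1 gave 3, and the replicate number as a block gave 2. With 2 calls the share was 6.45%, against 4.86% to 5.77% of all genes in the fits without those arrays and 7.05% with the block. With 3 calls it was 9.68% against 7.05%. TRIM33 and UHRF1 were past the threshold in each of those fits, and EHMT1 and SUV39H1 were lost with the block (adjusted p = 0.0566 and 0.0713). SUV39H1 was also lost on leaving out any 1 array (limma adjusted p between 0.0521 and 0.111). EHMT1 was lost without any 1 control array or knockout 2 (0.0524 to 0.0815) and kept without knockout 1 or knockout 3.

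Zinc finger genes of chromosome 19 with other names gave no call. Of 20 listed ZFP, ZSCAN, ZBTB and similar genes, 15 were measured, 0 passed the limma adjusted p and 2 had an unadjusted p under 0.05, where 9.49% and 22.8% of all genes tested did. With so few genes, no call is close to that background. Their median log2 change was 0.092, with 13 above 0. ZSCAN18 was nearly identical on the control arrays (6.77 on each) and read 7.02, 6.95 and 6.97 in knockout arrays (limma adjusted p = 0.132). ZFP30 read 6.08, 6.14 and 6.14 against 6.42, 6.30 and 6.29 (limma adjusted p = 0.142).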

How the data were processed

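Total RNA from 3 control and 3 NR1D1 KO samples was amplified and biotin-labelled for GeneChip whole-transcript arrays, as the labels' protocols state. The table that the authors deposited is 1 table of log2 values, read as log2 from their range (1.16 to 13.75) and nearly equal quantiles. No source used here gives its normalization, summarization or genome build. Of 53617 probe sets 16098 carried 1 gene symbol, 0 several and 37519 none, and all 16098 matched the RefSeq table (GRCh38.p14) by gene identifier. The brightest probe set was kept for 779 genes with several. Chromosome and gene order came from that table. The arm was assigned by whether a gene starts before or after a fixed position set for the centromere.

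All 14884 genes were fitted with limma 3.58.1 in R 4.3.3 (constant prior, two-sided, Benjamini-Hochberg over all genes, threshold 0.05). Simulated data had these genes' means and spreads, with 200 genes changed per run. The fit gave back 40.0% of changes of 0.5 on the log2 scale, 85.2% of changes of 1 and 99.2% of changes of 2. In the real data 1412 genes were called. The adjustment depends on the number of changed genes, so these rates need not hold for the real fit. Named genes were all called members, the member with the smallest p in each run of at least 5 without a call, up to 4 called genes of each list (or the 2 with the smallest p) and TRIM28, and others are marked as chosen later. Members and lists were chosen with earlier results of these data known. Start-site windows were aligned with Biopython 1.88, at the first listed start of a gene, and motifs were counted over all its listed starts. Protein sequences were not used here, so finger and KRAB counts are not reported. Figures used matplotlib 3.10.9 in Python 3.11.15. Alternatives were quantile normalization, median centring, filters on dim genes, averaged probe sets, other priors, array weights, a replicate block, each array left out and another threshold.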

Additional observations from a re-analysis of the deposited data

How the results depend on the processing

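The number of calls depended on the stringency of the fit. Leaving out the dimmest 25% of genes gave 21 called members of 202 (10.4%, against 15.9% of all genes), 7 on the short and 14 on the long arm. Leaving out the dimmest 50% gave 21 of 136 (15.4% against 25.4%), with 8 and 13 on the arms. These filters test fewer genes. A trend and robust prior gave 19 (8.41% against 13.1%), with 7 on the short arm. An unadjusted p under 0.05 with a 1.5-fold change gave 5 on the long arm (3.31%, against 3.75% of all genes). With each array left out in turn, called members ran from 7 to 16, with 3 to 6 on the short arm and 4 to 10 on the long arm. These were 3.1% to 7.08% of the members, 4% to 8% of the short arm and 2.65% to 6.62% of the long arm. Over all genes the share called ran from 4.86% to 7.05% in those fits. The median change stayed between 0.080 and 0.13 (0.060 to 0.13 on the short and 0.097 to 0.13 on the long arm). Without the dimmest 50% of genes it was 0.13, and 0.15 on the short arm. Between 159 and 165 members lay above 0 under quantile normalization or median centring.

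The corepressor list gave 11 calls of 28 without the dimmest 50% of genes (39.3%, against 25.4% of all genes) and 11 of 31 with the trend and robust prior (35.5% against 13.1%). It gave 1 with the other threshold (3.23% against 3.75%). With an array left out it gave 2 to 4 (6.45% to 12.9%, against 4.86% to 7.05% of all genes). The other zinc finger list gave 2 of 8 without the dimmest 50% (25% against 25.4%), and 0 with any array left out. The cause of the differences with the prior was not tested. Same-numbered arrays of the groups did not deviate together (r of 0.0547, 0.0681 and -0.106 over all genes), so the numbers were not taken as pairs. With the replicate number as a block, 13 members were called (5.75%, against 7.05% of all genes), 10 of them among the 12. The corepressor list gave 2 calls with the block (6.45%). Over the named genes, 275 of 317 refits kept the side of the threshold, 37 lost the call, 5 gained it and 0 changed sign. The filters, the prior and the block leave a gene's log2 change as it is. Where the groups do not overlap, leaving out 1 array cannot turn the sign. The count of unchanged signs was therefore largely fixed in advance.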

Other observations

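Among ZNF genes of other chromosomes the largest fall was deeper than on chromosome 19 (log2 change -0.87 against -0.46). The largest rise was similar (1.17 against 1.08), and 1 gene passed 2-fold in each set. The genes named here were chosen after their values were seen. ZNF184, on chromosome 6, read 6.67, 6.84 and 6.78 in control and 8.02, 7.90 and 7.87 in knockout arrays, a 2.25-fold rise (limma adjusted p = 0.000171). ZNF451, a chromosome 6 gene whose product promotes SUMO conjugation, rose 1.51-fold (limma adjusted p = 0.00415). ZNF697, on chromosome 1, read 7.18, 6.95 and 7.23 against 6.08, 6.36 and 6.30, a 1.83-fold fall (limma adjusted p = 0.00228). ZNF280C, on chromosome X, fell 1.6-fold (limma adjusted p = 0.0028). In all, 22 of these 242 genes were called, or 9.09%, against 9.49% of all genes tested.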
